A study of Mus musculus with 6 samples.

Results

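The ADAMTS proteases are secreted zinc metalloproteinases with thrombospondin type 1 repeats, which cut proteoglycans, procollagens and other proteins of the extracellular matrix. The genes described are Adamts1, Adamts2, Adamts4, Adamts5, Adamts7, Adamts9, Adamts10, Adamts12, Adamts15 and Adamts20, 10 in all, and every probe set that the platform annotation gives to 1 of them alone was taken. This found 17 probe sets for 9 of the genes, of the 18193 genes named on the array, while Adamts2, which removes the amino-terminal propeptide of fibrillar procollagens, was not analysed here. RNA came from C3H10T1/2, a mesenchymal line from mouse embryo with the capacity to become fat, cartilage, bone and muscle cells, and the series concerned genes that BMP4 regulates as these cells commit to the adipocyte lineage. In the BMP4 group cells received 50 ng/ml BMP4, a secreted bone morphogenetic protein, while they proliferated, and the control group had no treatment. Total RNA was harvested past confluence in both groups, and each group had 3 samples on 1 single-colour array each. Whether the 3 samples of a group came from separate cultures is not in the labels. The p-values therefore cover only the variation among these 3, and it could be technical.

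ADAMTS proteases are made as inactive precursors and are activated by proprotein convertases such as furin. Some of them, among them Adamts1, Adamts4, Adamts5, Adamts9, Adamts15 and Adamts20, cleave the hyaluronan-binding proteoglycans aggrecan or versican, and are called aggrecanases or hyalectanases. The inhibitor Timp3 blocks several of these enzymes, and the endocytic receptor Lrp1 removes some of them from the matrix. In mesenchymal tissues they are known for remodelling the matrix of cartilage, tendon, vessel wall and fat.

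The arrays had a median signal of 37.6 to 42.6 with BMP4 and 35.2 to 37.3 without it. The highest signal of the bacterial control probe sets, which match no mouse transcript, was 29.1 on any array and is used here as the background level. On the BMP4 arrays 56% to 59% of probe sets lay above it, against 54.4% to 55.7% on the control arrays. Differences were tested with limma on log2(signal + 16) over 27022 probe sets that passed a filter on low mean signal, and a probe set is called changed where the adjusted p (Benjamini-Hochberg over all of them) is under 0.05. In all, 9.12% were called, 4.2% higher and 4.91% lower with BMP4, and 46.1% of the calls were higher. With each array centred on its median 25.1% of the calls were higher. All 8 mesenchymal markers examined, such as Col1a1, Pdgfra and Prrx1, were above background on every array with at least 1 probe set. Of 5 macrophage and leukocyte markers, 5 endothelial and 5 epithelial ones, the defining genes Ptprc, Pecam1 and Cdh1 were at or under background on every array. Above it on all 6 arrays with at least 1 probe set were 4 of the 5 macrophage and leukocyte genes (Cd68, Adgre1, Csf1r and Laptm5), 2 of the 5 epithelial genes (Krt8 and Epcam) and 1 of the 5 endothelial genes (Tek). The other Epcam probe set was under background on every array, at 3.9 to 12.2 with BMP4 and 4.4 to 16.2 in control. Of the 2 other Krt8 probe sets, 1 was above background on no array and 1 on a single control array. No other Laptm5 probe set was above background on all 6 arrays, and 1436905_x_at was under it on every array. Adgre1 read 29.4 on BMP4 replicate 2, close to the background level of 29.1. The summed signal of each of these 3 lists overlapped between groups, at 477 to 611 with BMP4 and 520 to 586 without it for macrophages and leukocytes, 151 to 284 with BMP4 and 221 to 279 without it for endothelium, and 354 to 627 with BMP4 and 512 to 592 without it for epithelium. Over all tested probe sets of the 4 marker lists, those called were all lower with BMP4. They were 3 of Pdgfra, a receptor of mesenchymal progenitors (log2 changes -1.05, -0.90 and -0.69), 1 of Prrx1, a mesenchymal homeobox gene (-0.49, limma adjusted p = 0.0014), and that of Tek (-0.69, limma adjusted p = 0.0167). The other tested Prrx1 probe sets were not past the test, with log2 changes of -0.193 to -0.041. The part of these marker changes in the changes of the proteases was not tested.

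BMP4-treated cells had lower signals of 4 ADAMTS genes, Adamts5, Adamts1, Adamts12 and Adamts9, and none of the 8 genes that could be tested was called higher. Of the 17 ADAMTS probe sets, 12 for 8 genes passed the filter. Of these 6 were called lower (4.91% of all probe sets tested were) and 0 higher by limma. At an unadjusted p under 0.05 in limma 7 were lower and 0 higher. The share of all probe sets past that looser cutoff was not computed, so 4.91% is no baseline for the 7. Since 3 of the 6 were of Adamts5, probe sets do not count as separate genes. With each gene as its brightest tested probe set, 4 of 8 were called lower, against 5.66% of 12966 genes. At 6 of the 12 tested the 3 BMP4 arrays lay wholly below the 3 control arrays, against 13.2% of all probe sets tested. At 0 of the 12 they lay wholly above, against 15%. The 6 are the same ones that limma called, so their separation is not further support for the calls. At 4 of the 12, all of Adamts5 or Adamts1, the called fall was at least 2-fold, against 0.651%. The median log2 change over all 17 probe sets, in a fit without the filter, was -0.36, and that over all probe sets of the array was 0.04. In whole-culture RNA, fewer cells that express a gene and less RNA per cell cannot be told apart.

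Adamts5, an aggrecanase known as the main one of mouse cartilage, had the largest fall on the log2(signal + 16) scale among the 8 tested genes of the 10 described, and fell on 3 probe sets. Probe set 1422561_at read 668, 616 and 696 on the BMP4 arrays, against 1991, 2004 and 1994 on the control arrays. The control arrays lay close together, and the lowest of them was far above the highest BMP4 array. The means were 659.9 ± 40.4 with BMP4 and 1997 ± 6.97 in control (SD, n = 3 each), a ratio of 0.331, and the log2 change was -1.58 ± 0.067 (SE, limma adjusted p = 3.62e-07). Probe set 1450658_at read 343, 374 and 312 with BMP4 and 988, 975 and 970.0 in control, a log2 change of -1.47 ± 0.075 (limma adjusted p = 9.03e-07). The platform annotation gives both of these probe sets the same source sequence, so they are not separate evidence of the gene's level. Probe set 1456404_at, from another source sequence, read 1026, 943 and 914 with BMP4 and 2189, 2318 and 2202 in control, a smaller log2 change of -1.21 ± 0.069 (limma adjusted p = 2.13e-06). Its 95% interval of -1.36 to -1.05 did not meet the interval of -1.72 to -1.43 of 1422561_at, so the size of the fall depended on the probe set. The dimmest probe set, 1456969_at, read 1.3, 10.5 and 9.2 with BMP4, at or under background, and 36.3, 26.5 and 32.2 in control, where 2 of 3 arrays were above background. It lay below the filter, and in a fit without the filter its log2 change was -1.07 (95% interval -1.57 to -0.57, limma adjusted p = 0.0328).

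Adamts1, a protease that cleaves versican and is known from ovulation and inflammation, is the gene next to Adamts5 on mouse chromosome 16, with no other protein-coding gene between them in the RefSeq table. Its only probe set, 1450716_at, read 2292, 2451 and 1969 with BMP4, against 4302, 4820.1 and 4849 in control. All BMP4 arrays lay below all control arrays, and BMP4 replicate 3 was the lowest of the 6. The means were 2237 ± 246 with BMP4 and 4657 ± 308 in control (SD, n = 3 each), a ratio of 0.480 for BMP4 over control, and the log2 change was -1.06 ± 0.095 (SE, limma adjusted p = 4.76e-05).

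Adamts12 and Adamts7 form a pair in the family that is known to cleave the cartilage oligomeric matrix protein Comp, of which Adamts12 passed the test and Adamts7 did not. Adamts12 probe set 1439827_at read 338, 345 and 275 with BMP4 and 581, 609 and 666 in control, with no overlap. Its means were 319 ± 38.5 with BMP4 and 619 ± 43.2 in control (SD, n = 3 each), and its log2 change was -0.925 ± 0.094 (SE, limma adjusted p = 0.000122). A second Adamts12 probe set, 1446666_at, was at or under background on all 6 arrays, with 6.1 to 23 in BMP4 cells and 13.6 to 18.1 in control cells, and was not tested. Adamts7 probe set 1452339_at read 70.0, 61.1 and 81.0 with BMP4 and 62.1, 44.9 and 63.0 in control, so the groups overlapped. Its log2 change of 0.26 had a 95% interval of -0.11 to 0.63 (limma adjusted p = 0.398), which does not overlap the interval of -1.13 to -0.72 of Adamts12. No test of the difference between the 2 genes was made.

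Adamts9, a versican-cleaving protease of the branch closest to the nematode protease GON-1, had 3 probe sets that did not move alike. Probe set 1437785_at read 178, 178 and 196 with BMP4 and 326, 351 and 257 in control. The BMP4 arrays were close together and all below the control arrays, which spread more widely. The means were 184 ± 10.3 with BMP4 and 311 ± 48.7 in control (SD, n = 3 each), a log2 change of -0.70 ± 0.112 (standard error; limma adjusted p = 0.00244). Probe set 1431399_at read 114, 86.2 and 69.5 with BMP4 and 85.9, 59.0 and 101 in control, and its log2 change of 0.11 had a 95% interval of -0.33 to 0.55 (limma adjusted p = 0.790). This interval does not overlap that of 1437785_at, -0.95 to -0.46, and the sources used here do not say which part of the transcript each probe set reads. The third, 1430352_at, was under background on every array, at 7.1 to 17.9 with BMP4 and 13.9 to 22.6 in control.

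**Figure D1:**
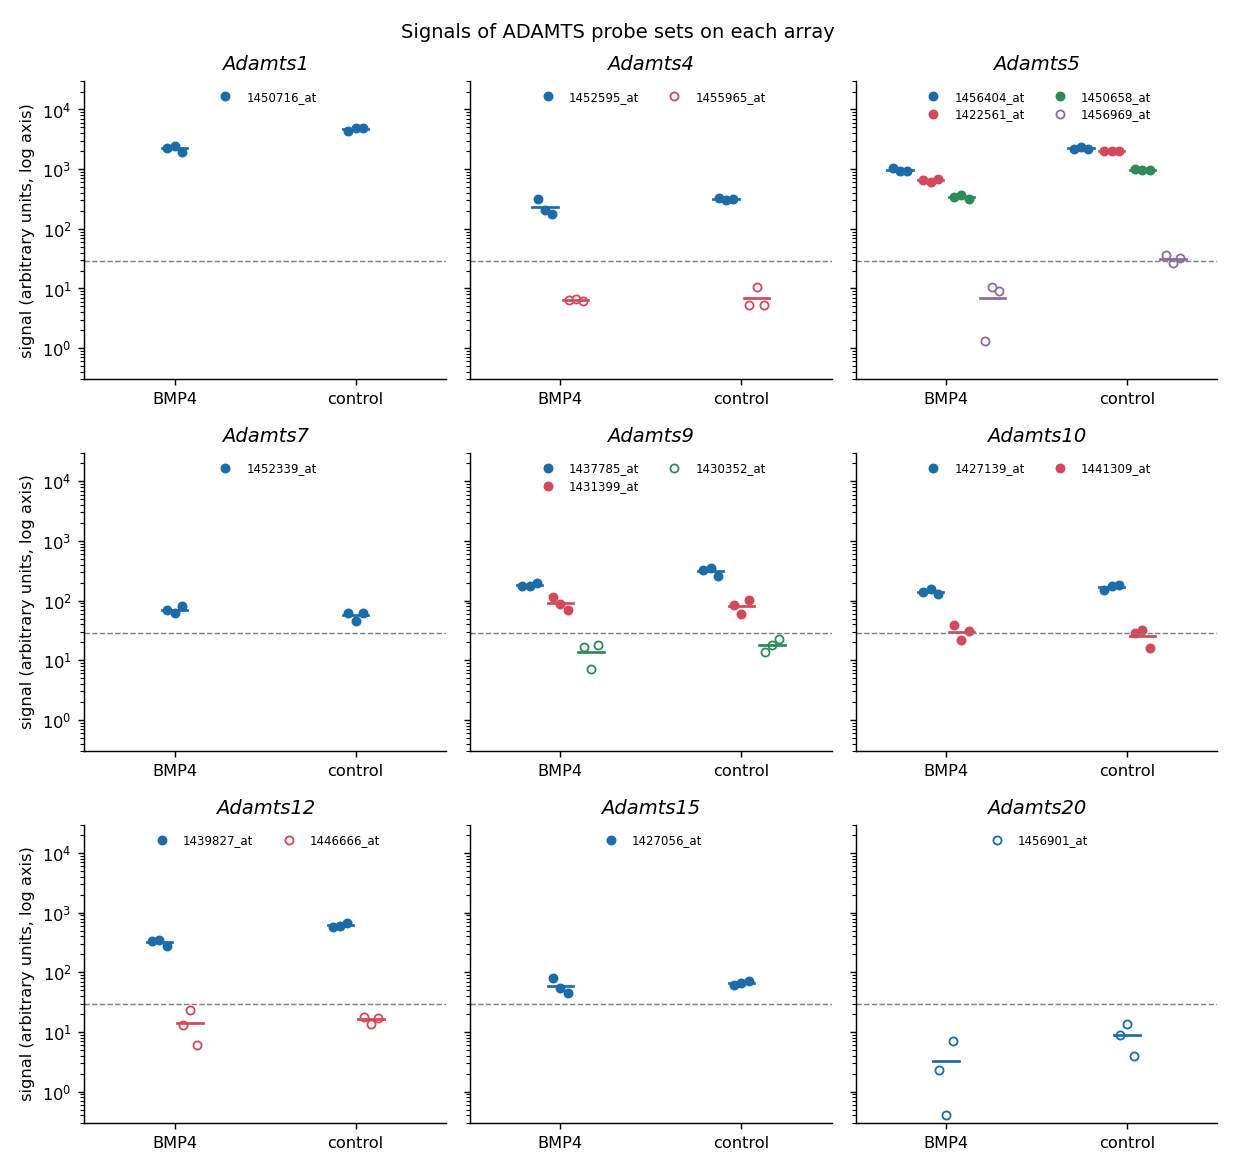
Signal of every ADAMTS probe set (log axis, arbitrary units) on each of the 3 BMP4 arrays, left, and the 3 control arrays, right, with 1 panel per gene. Points are arrays in replicate order, short lines are means, open points are probe sets below the filter, and the dashed line is the background level of 29.1. The 3 bright Adamts5 probe sets and the Adamts1 probe set are lower on every BMP4 array than on any control array.

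Of the 4 genes that fell, 3 (Adamts1, Adamts9 and Adamts12) have an entry in the RefSeq promoter table (build GRCm38.p6), and the 250 bases before each start are shown because these genes moved in 1 direction. Capitals mark matches to the motifs searched on both strands, 5′ to 3′ on the strand of the gene.
Adamts1 chr16:85803114-85803363, minus strand: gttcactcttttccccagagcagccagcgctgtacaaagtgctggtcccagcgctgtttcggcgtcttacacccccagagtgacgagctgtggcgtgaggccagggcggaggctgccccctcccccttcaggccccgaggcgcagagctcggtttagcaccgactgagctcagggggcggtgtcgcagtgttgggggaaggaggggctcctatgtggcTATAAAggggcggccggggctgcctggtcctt
Adamts9 chr6:92943535-92943784, minus strand: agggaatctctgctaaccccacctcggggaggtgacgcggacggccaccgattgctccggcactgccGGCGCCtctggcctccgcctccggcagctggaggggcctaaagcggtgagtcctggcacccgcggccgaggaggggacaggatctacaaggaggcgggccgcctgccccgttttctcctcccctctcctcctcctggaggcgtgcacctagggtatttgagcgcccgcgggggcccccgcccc
Adamts12 chr15:11064523-11064772, plus strand: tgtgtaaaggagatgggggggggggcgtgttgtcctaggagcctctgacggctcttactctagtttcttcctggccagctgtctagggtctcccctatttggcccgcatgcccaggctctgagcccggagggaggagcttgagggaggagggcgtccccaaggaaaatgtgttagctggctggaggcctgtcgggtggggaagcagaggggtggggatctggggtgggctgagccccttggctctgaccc
The motifs were the GC-rich BMP Smad element GGCGCC, the palindromic Smad element GTCTAGAC, the AP-1 element TGANTCA and the TATA box TATAAA, none of which overlapped another in these windows. Adamts1 had 1 TATA box, its first base 32 bases before the start. Anywhere in the window and on either strand, 12.4% of 32851 windows of this length in the table held one. At about this place on the strand of the gene, 310 of 16560 plus-strand windows and 303 of 16291 minus-strand windows held it. Adamts9 had 1 GGCGCC, its first base 183 bases before the start, against 9.6% of all windows. No motif of the 4 was in the Adamts12 window, and GTCTAGAC and TGANTCA, found in 0.2% and 6.7% of all windows, were in none of the 3. The GC content was 65.6% for Adamts1, 71.2% for Adamts9 and 63.2% for Adamts12, against a median of 52.4% over all windows. CpG dinucleotides numbered 15 for Adamts1, 22 for Adamts9 and 6 for Adamts12, against a median of 6. A match describes the letters only, and no shared motif among those searched was seen in the 3 windows.

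Adamts4, the other aggrecanase much studied in cartilage, did not pass the test. Probe set 1452595_at read 321, 206 and 176 with BMP4 and 323, 304.5 and 321 in control. BMP4 replicate 1 lay within the control range while the other 2 BMP4 arrays were below it. The means were 234 ± 76.5 with BMP4 and 316 ± 10.2 in control (SD, n = 3 each), and the log2 change of -0.45 had a 95% interval of -0.82 to -0.08 (limma adjusted p = 0.132). Without BMP4 replicate 1 the change was -0.69 and past the test (limma adjusted p = 0.00157), and with each array centred on its median it was -0.55 (limma adjusted p = 0.0396), so the call for Adamts4 turns on that array and on the scaling. Its other probe set, 1455965_at, was under background throughout, at 6.2 to 6.7 with BMP4 and 5.2 to 10.6 in control.

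The remaining hyalectanases were dim. Adamts15, which cleaves versican, read 79.2, 53.9 and 45.2 with BMP4 and 61.4, 65.9 and 72.6 in control on its 1 probe set. The BMP4 arrays spread on both sides of the control arrays, and the log2 change was -0.15 (95% interval -0.56 to 0.25, limma adjusted p = 0.670). Adamts20, a close relative of Adamts9 known for its role in the coat pigment of belted mice, read 2.3, 0.4 and 7.0 with BMP4 and 8.9, 13.5 and 3.9 in control. All 6 values were under background, so no fold is given and the gene was not detectable on this probe set.

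Adamts10, which binds fibrillin and acts in microfibril assembly, had 2 tested probe sets. The brighter one, 1427139_at, read 140.0, 155 and 127 with BMP4 and 149, 178 and 184 in control, so that the groups overlapped at a single pair of arrays. Its log2 change of -0.25 had a 95% interval of -0.50 to 0.001 (limma adjusted p = 0.224). The dimmer one, 1441309_at, straddled background, at 38.6, 21.8 and 30.4 with BMP4 and 28.9, 32.0 and 15.8 in control, with a log2 change of 0.16 (95% interval -0.35 to 0.67, limma adjusted p = 0.732).

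**Figure D2:**
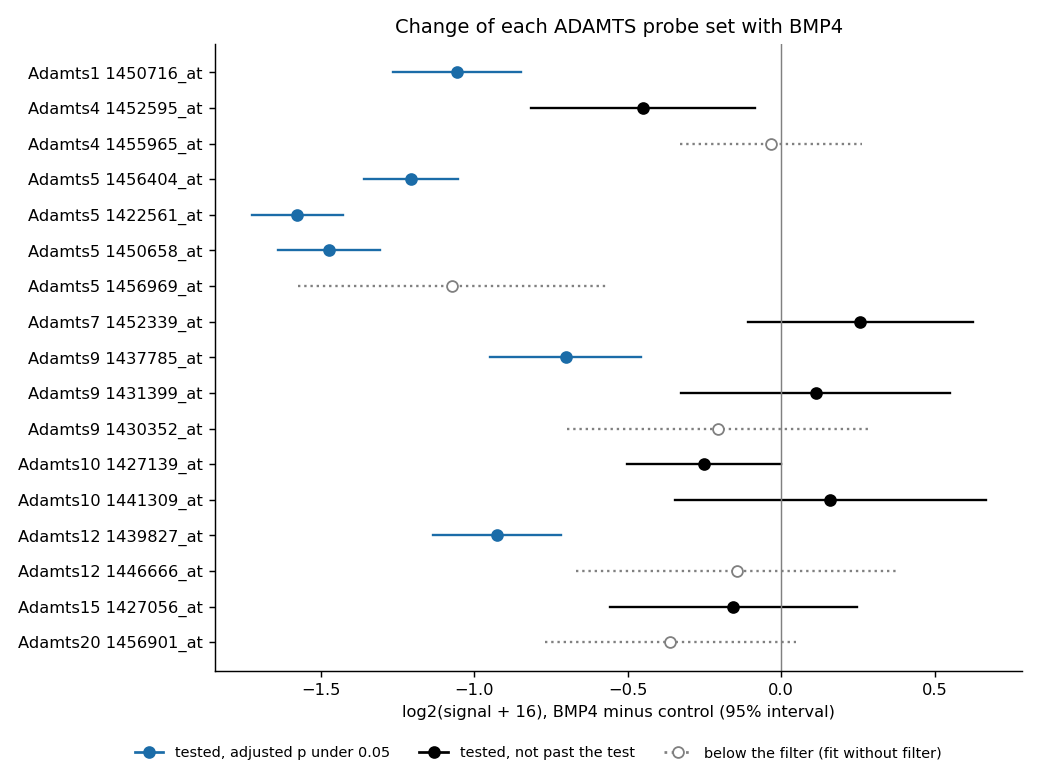
Log2(signal + 16) on BMP4 minus control arrays for each of the 17 ADAMTS probe sets, with 95% intervals from limma. Blue points passed the test, black points did not, and open grey points lay below the filter and come from a fit without it. The 6 blue probe sets run from -1.58 (Adamts5) to -0.70 (Adamts9).

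The order of the log2 changes among the brightest tested probe set of each gene was Adamts5 (-1.21), Adamts1 (-1.06), Adamts12 (-0.925), Adamts9 (-0.70), Adamts4 (-0.45), Adamts10 (-0.25), Adamts15 (-0.15) and Adamts7 (0.26). The 95% intervals of neighbours in this order overlapped in every case, and no difference between neighbours was tested. Among all 27022 probe sets tested, 0.2% had a lower log2 change than Adamts5 probe set 1422561_at, 0.574% a lower one than Adamts1 and 1.7% a lower one than Adamts9 probe set 1437785_at. Levels of different probe sets are not compared, since brightness depends on the probe.

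The genes whose signal pattern was most like that of the 2 Adamts5 probe sets with the largest change were found by Pearson's r of log2(signal + 16) over the 6 arrays. These arrays fall into 2 groups that differ for Adamts5, so r over them includes the group difference, and it is given as a description. For 1422561_at they were Med12l, which encodes a Mediator-related protein (r = 0.9979), the metalloreductase gene Steap3 (r = 0.9976) and the heparan sulfate-modifying enzyme gene Ndst4 (r = 0.9976). Their log2 changes were -1.42 for Med12l, -0.60 for Steap3 and -0.40 for Ndst4, the last not past the test (limma adjusted p = 0.155). For 1450658_at they were Thbd, the endothelial thrombin receptor thrombomodulin (r = 0.9997), the matricellular gene Smoc2 (r = 0.9997) and Igfbp4, which binds insulin-like growth factors (r = 0.9993). All 3 fell, with log2 changes of -1.97 for Thbd, -1.59 for Smoc2 and -1.45 for Igfbp4.

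Among 9 other ADAMTS genes listed, 6 had a named probe set and 2 had one past the filter. With each gene as its brightest tested probe set, 1 of these 2 was called lower, against 5.66% of 12966 genes. Adamts16, a protease expressed in kidney and gonads, read 35.9, 45.7 and 26.6 with BMP4 and 142, 126 and 132 in control on probe set 1439604_at, a log2 change of -1.53 ± 0.162 (standard error; limma adjusted p = 0.000155). Another Adamts16 probe set, 1441841_at, read 99.3, 54.1 and 83.2 with BMP4 and 34.2, 72.3 and 72.5 in control, with a log2 change of 0.34 (limma adjusted p = 0.459), so the fall was seen on 1 of 2 probe sets. On 1439604_at the BMP4 signals lay near background, with 2 of the 3 arrays above it. The log2 change of this probe set ranged from -1.80 to -0.98 over the other settings tried, so its size depended on the processing. Adamts8 overlapped between groups near background, at 19.5 to 38.7 with BMP4 and 19.3 to 29.6 in control. Adamts18 probe set 1437574_at read 19.1, 20.3 and 15.9 with BMP4 and 2.9, 7.2 and 5.7 in control, under background on every array. This probe set lay below the filter, and in the fit without the filter it was higher with BMP4 (log2 0.70, limma adjusted p = 0.0433). The other Adamts18 probe sets overlapped between groups under background. Of 7 ADAMTS-like genes and papilin, whose products carry the ancillary domains without the protease, 4 were tested. Against 5.66% of genes called lower on the same basis, 1 of these 4 fell. This was Adamtsl3, at 471, 426 and 468 with BMP4 and 635, 583 and 656 in control (log2 -0.44 ± 0.074, limma adjusted p = 0.00323).

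Genes that regulate or clear the proteases mostly did not pass the test, except the inhibitor Timp3. In the lists that follow, each gene stands as its tested probe set with the highest mean, and on that basis 10.7% of 12966 genes were called, 5.03% higher and 5.66% lower. Of 6 tested inhibitor and clearance genes 1 rose and 0 fell, with a median log2 change of 0.03. Timp3 read 4238, 4248 and 4058 with BMP4 and 2549, 2939 and 3126 in control, a log2 change of 0.54 ± 0.088 (standard error; limma adjusted p = 0.00256). Its 3 further probe sets rose by 0.75, 0.76 and 0.94. Lrp1 had a log2 change of -0.22 (limma adjusted p = 0.192), and was past the test without control replicate 1 (-0.32, limma adjusted p = 0.0230) and with quantile normalization (-0.26, limma adjusted p = 0.0120). At an unadjusted p under 0.05 the limma counts for this list were 1 higher and 1 lower. The share of all genes past that unadjusted cutoff was not computed, for this list or the others. Of 6 tested convertase and glycosyltransferase genes 0 rose and 0 fell in limma, also at an unadjusted p under 0.05. Furin read 286, 280.2 and 301 with BMP4 and 283, 268 and 295 in control, a log2 change of 0.03 (95% interval -0.14 to 0.20, limma adjusted p = 0.858).

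Hyalectans and link proteins, the substrates of the aggrecanases and their partners, had 0 called among 7 tested genes, also at an unadjusted p under 0.05 (limma), with a median log2 change of -0.11. Vcan, which encodes versican, read 3376, 3579 and 3136 with BMP4 and 3287, 3990 and 4108 in control, a log2 change of -0.17 (95% interval -0.39 to 0.05, limma adjusted p = 0.348). With quantile normalization Vcan was past the test at -0.21 (limma adjusted p = 0.0241). Acan, the aggrecan gene, read 56.0, 57.5 and 31.5 with BMP4 and 49.8, 40 and 58.4 in control, with overlapping groups (log2 -0.04, limma adjusted p = 0.934).

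Of 10 procollagen and procollagen-processing genes 1 rose and 1 fell, with a median log2 change of 0.03. Col2a1, the main collagen of cartilage, read 518, 417 and 546 with BMP4 and 100, 111 and 145 in control (log2 1.92 ± 0.134, limma adjusted p = 8.6e-06). Bmp1, the protease that removes the carboxy-terminal propeptide of procollagens, read 345, 310 and 366 with BMP4 and 444.5, 459 and 533 in control (log2 -0.47 ± 0.090, limma adjusted p = 0.00727), and without the intensity trend it was not past the test (limma adjusted p = 0.0588). The 2 further Bmp1 probe sets gave -0.70 (limma adjusted p = 0.000989) and -0.22 (limma adjusted p = 0.682). Col1a1 had a log2 change of 0.13 (limma adjusted p = 0.579). Col3a1 was not past the test on its brightest probe set (log2 -0.009, limma adjusted p = 0.976). Its other probe set, 1427884_at, was called lower (log2 -0.45, limma adjusted p = 0.0352), and was not past the test without the filter (limma adjusted p = 0.0968).

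Of 10 tested genes for other reported substrates and partners 0 rose and 3 fell, with a median log2 change of -0.14. At an unadjusted p under 0.05 in limma 1 was higher and 4 lower, with no share of all genes computed at that cutoff. Nid1 and Nid2 encode the basement membrane linkers nidogen 1 and nidogen 2. Nid2 read 1552, 1691 and 1388 with BMP4 and 2290.3, 2528 and 2569 in control (log2 -0.67 ± 0.086, limma adjusted p = 0.000555). Nid1 read 1316, 1279 and 1362 with BMP4 and 1940.5, 2106 and 1962 in control (log2 -0.60 ± 0.067, limma adjusted p = 0.000232). Fbln1, whose product fibulin 1 is a cofactor of Adamts1, read 48.2, 32.7 and 45.4 with BMP4 and 77.5, 74.2 and 74.1 in control (log2 -0.66 ± 0.161, limma adjusted p = 0.0268). The Fbln1 call was lost without BMP4 replicate 2 or any 1 control array, with limma adjusted p of 0.0743 to 0.0910, and without the filter (0.0712), while another Fbln1 probe set gave a log2 change of 0.00. Comp, at 61.8, 48.4 and 46.6 with BMP4 and 27.6, 35.2 and 45.1 in control, had non-overlapping groups but was not past the test (log2 0.40, limma adjusted p = 0.239). Sdc4, a heparan sulfate proteoglycan linked to Adamts5 activity, had a log2 change of -0.02 (95% interval -0.16 to 0.13, limma adjusted p = 0.903).

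**Figure D3:**
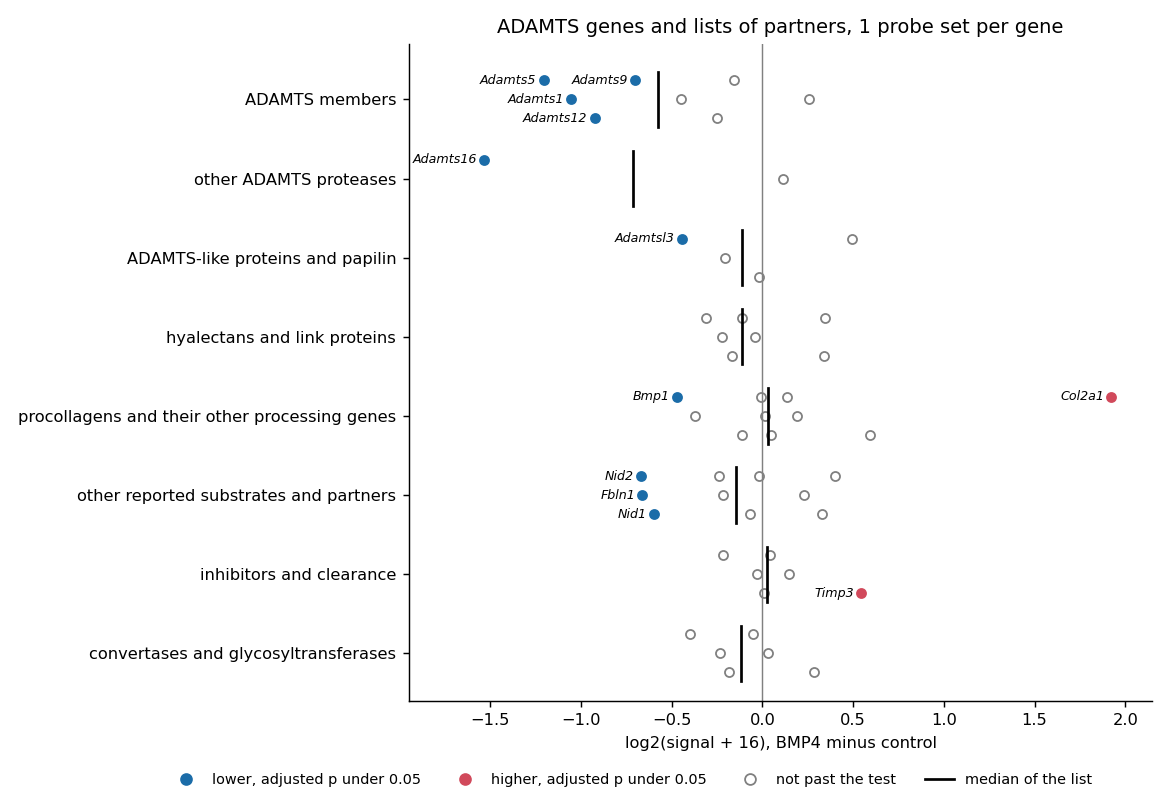
Log2(signal + 16) on BMP4 minus control arrays for the ADAMTS genes, top row, and 7 lists of related genes below, with 1 point per tested gene and a vertical bar at the median of each list. Named blue points passed the test lower with BMP4 and named red points higher. The medians of the 6 lists under the other ADAMTS proteases lie between -0.14 and 0.03, and the median over the 8 tested ADAMTS genes is -0.58.

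The 6 called ADAMTS probe sets stayed past the test and lower with BMP4 under all 14 alternative settings tried. Adamts1 ranged from -1.15 to -0.97 over these settings, Adamts12 from -1.02 to -0.83 and Adamts9 probe set 1437785_at from -0.83 to -0.59. The Adamts5 probe sets ranged from -1.67 to -1.51 for 1422561_at, -1.57 to -1.36 for 1450658_at and -1.30 to -1.17 for 1456404_at. The highest limma adjusted p over these settings was 0.0277, for Adamts9.

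**Figure D4:**
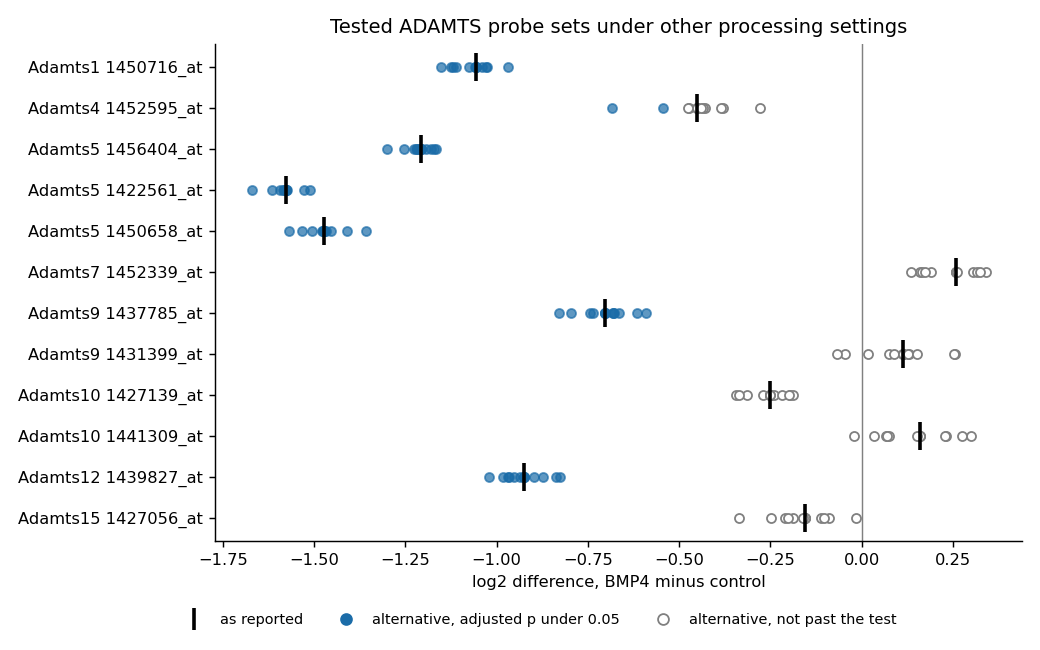
Log2 difference of BMP4 minus control arrays for the 12 tested ADAMTS probe sets as reported (black bar) and under 14 other settings (points). Filled points passed the test. The 6 called probe sets are filled at every setting, and the Adamts4 probe set is filled at 2 of them.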

How the data were processed

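Total RNA of 6 C3H10T1/2 samples was measured on single-colour arrays, and the sample titles gave each array's group and replicate number. The deposited values are linear signal intensities. Per the submitters' processing notes the authors used GCOS 1.3; their scaling and background settings were not given in the sources used here. Every array had a 2% trimmed mean of 150, so no further scaling was applied. Of the probe sets other than controls, 34945 had 1 gene symbol in the platform annotation, 932 had several and 9160 were unnamed here. Genes were named from probe sets with 1 symbol.

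After removal of 64 control probe sets, values were analysed as log2(signal + 16), a scale that understates changes of dim genes. Probe sets were kept where their mean log2 value over 6 arrays was above the 40th percentile (a signal of 23.5), leaving 27022. limma 3.58.1 in R 4.3.3 was used (lmFit, eBayes with an intensity trend, two-sided, Benjamini-Hochberg), and the fit was first tested on simulated data. Intervals are 95% intervals from limma. The background level is the highest signal of 27 bacterial control probe sets. The number of arrays limits the precision.

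The members, lists and tests were chosen with earlier results of these data known. All ADAMTS probe sets are named, and Col3a1 is named for a called probe set that did not stand for the gene. Adamts18 is named for a probe set below the filter that was past the test in the fit without it. From each list up to 3 called genes by size of change are named, with 8 fixed genes that had a tested probe set, and 3 genes most like each of 2 Adamts5 probe sets. Alternatives were other pseudocounts, filters and normalizations, no intensity trend, a replicate block and leaving out each array. Same-numbered arrays of the 2 groups had correlations of -0.072 to 0.01 in their deviations from group means, so the numbers were not taken to pair the samples. Protein sequences were not used here.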

Additional observations from a re-analysis of the deposited data

How the results depend on the processing

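Of 167 recomputed changes of tested ADAMTS probe sets, 165 kept their side of the threshold and 2, both of Adamts4, passed it as given above. The number of ADAMTS probe sets called lower was 6 to 7 over all settings, and 0 were higher at any of them. Over all probe sets 1136 were higher and 1328 lower. Without the intensity trend 659 were higher and 763 lower, and with median centring 632 were higher and 1890 lower. Leaving out 1 array gave 768 to 945 higher and 845 to 1063 lower; the lowest numbers of lower probe sets were 845 without control replicate 1 and 854 without control replicate 2. With the replicate block, 985 were higher and 1105 lower, and 6 ADAMTS probe sets were lower; the numbers of the titles were not taken to pair the samples. With quantile normalization 1 hyalectan gene was lower, 2 procollagen-processing genes were lower, 1 substrate or partner gene was higher and 2 inhibitor or clearance genes were lower. The filter at the 60th percentile gave 2 higher procollagen-processing genes, and without the intensity trend 0 of them were lower. Leaving out 1 array gave 0 to 1 lower inhibitor or clearance genes, the 1 being without control replicate 1. Of 207 recomputed changes of the called and fixed genes named from the lists, 198 kept their side of the threshold, 6 lost it, 3 gained it and 0 reversed. The cause of these shifts was not tested. Probe sets under the background level, such as those of Adamts20, limit what can be said of dim genes.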
